A study of Mus musculus with 6 samples.

Results

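Fatty acid oxidation and ketogenesis were followed through 35 genes in livers of mice given an overdose of acetaminophen (APAP). The 35 genes were picked by gene name out of the 34745 genes of the deposited count table. All 35 were found there, and none was lost to the low-count filter, which left 13734 genes for testing. The series holds 6 WT livers, 3 from mice injected i.p. with saline and 3 from mice injected with APAP at 300 mg/kg and examined at 12 hours, and all mice had been fasted for 12 hours. The study's methods describe the animals as male C57BL/6J mice aged 8 to 10 weeks, and the labels give no time for saline. Counts of 5 libraries were analysed, APAP 1, APAP 3 and 3 libraries named WT1, WT2 and WT3, which were read as the saline livers because the table holds no other control columns. APAP 2 was not analysed here. The sources do not say how the libraries of a group were prepared relative to each other, so the p-values measure the spread between these libraries, part of which may be technical.

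In fasting, fatty acids released by adipose tissue are taken up by hepatocytes, activated to acyl-CoA, carried into mitochondria by the carnitine shuttle and shortened by beta-oxidation. Each turn of this spiral uses an acyl-CoA dehydrogenase, a hydratase, a hydroxyacyl-CoA dehydrogenase and a thiolase, and the acetyl-CoA formed is in part turned into ketone bodies. Very long chains are shortened in peroxisomes, microsomal CYP4A enzymes oxidize the omega end, and the nuclear receptor PPARα, active in the fasted liver, is known to drive many of these genes.

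The libraries held between 13378445 and 15976339 counts, so 3 counts, taken as the floor of detection, were worth between 0.176 and 0.269 CPM, a count scaled by the total and the TMM factor of its library. This floor covers counting error only. Levels below are in these CPM. WT3 stood apart among the saline libraries for many of the 35 genes. It was at least 2-fold above both WT1 and WT2 for 6 of the 35 genes, against 3.23% of all genes tested, and it was the highest saline library for 19 of 35 (54.3%), against 36.1% of all genes tested. For each gene named below with WT3 at least 2-fold above both WT1 and WT2, the fold change without WT3 is also given. The groups also differed in sex-linked RNA. All 4 Y-linked genes examined ranged from 12.7 to 79.0 CPM in APAP 1 and APAP 3 and did not exceed 0.0668 CPM in WT1, WT2 or WT3, and Xist was at 0.764 and 1.73 CPM with APAP and between 289.6 and 914 CPM after saline. These levels are those of male RNA in APAP 1 and APAP 3 and of female RNA in WT1, WT2 and WT3, although the study's methods describe male mice. The labels give no sex. The reading of the WT libraries as the study's saline livers rests on the column names and is uncertain. The effect of APAP and a difference in sex cannot be told apart in these libraries. Hepatocyte markers were abundant in all 5 libraries (albumin between 51544 and 129120 CPM), and 1 of 10, Apoa2, fell, with a median log2 fold change of -0.67 over the 10. Of 10 periportal markers 3 fell (median -1.03). Among 8 markers of centrilobular hepatocytes, 7 fell (summed level 1101 and 2146 CPM with APAP, 8466 to 14080 CPM after saline), and 8 of 10 tested neutrophil markers rose (129.5 and 84.1 CPM against 5.38 to 9.42 CPM). Of 8 monocyte markers 3 rose, Chil3, F13a1 and Ccr2 (summed level of the 8 104 and 162 CPM with APAP, 76.5 to 112 CPM after saline). The part of these cell types in the results below was not tested. In bulk RNA, fewer cells of a type and less RNA per cell cannot be told apart.

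Promoter sequence is shown for the 4 genes on which the description turns most: Ehhadh, which passed the adjusted test, Fabp1, the most abundant gene of the set per length, and the neighbouring thioesterase genes Acot1 and Acot2, of which Acot2 had the highest fold change. RefSeq promoter windows (GRCm38.p6, 250 bases before to 50 bases after each start) were held for 28 of the 35 genes. The letters AGGNCANAGGNCA, a direct repeat of the kind that PPARα and RXR bind, were searched on both strands. The motif was found in 125 of all 32851 windows (0.381%) and in the windows of 1 of the 28 genes, Fabp1. Each line below gives the 150 bases that end just before the gene as placed by the deposited table, 5′ to 3′ on the strand of the gene, with the motif in capitals.
Fabp1, chr6:71199677-71199826, plus strand: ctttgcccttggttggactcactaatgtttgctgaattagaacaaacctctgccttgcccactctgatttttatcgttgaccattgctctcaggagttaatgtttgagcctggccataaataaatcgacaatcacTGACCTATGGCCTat
Ehhadh, chr16:21787845-21787994, minus strand: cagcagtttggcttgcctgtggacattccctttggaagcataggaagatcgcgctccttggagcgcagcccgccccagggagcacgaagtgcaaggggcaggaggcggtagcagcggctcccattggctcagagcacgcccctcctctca
Acot1, chr12:84009352-84009501, plus strand: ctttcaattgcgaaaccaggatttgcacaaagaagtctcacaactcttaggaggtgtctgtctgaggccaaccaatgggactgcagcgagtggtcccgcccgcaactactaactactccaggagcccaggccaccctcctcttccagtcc
Acot2, chr12:83987711-83987860, plus strand: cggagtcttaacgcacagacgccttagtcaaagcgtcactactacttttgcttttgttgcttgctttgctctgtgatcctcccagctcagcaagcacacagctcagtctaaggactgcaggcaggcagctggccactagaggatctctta
The Fabp1 match read on the opposite strand and lay 67 to 55 bases before the start given by RefSeq, which is 52 bases downstream of the start in the deposited table. Ehhadh, Acot1 and Acot2 held no match in these windows, and the longest run of letters that the Acot1 and Acot2 windows shared before the start was 9 bases.

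The genes of the pathway did not move in 1 direction after APAP. Of the 35 genes, 1 rose at an adjusted p under 0.05 in edgeR's quasi-likelihood test, against 3.7% of all genes tested, and 0 fell, against 3.53%. At a fold of 1.5 or more with an unadjusted p under 0.05, the thresholds that the study names, 3 genes were higher (background 12.3%) and 4 were lower (background 11.2%). The same 3 and 4 genes had an unadjusted p under 0.05 whatever their fold. The number that fell at the adjusted threshold was 2 in edgeR's likelihood ratio test, 2 in its exact test and 3 in DESeq2. The APAP libraries were both above every saline library for 6 of the 35 genes (24% of all genes) and both below for 5 (20.1% of all genes), and the groups overlapped for 24. The median log2 fold change was 0.23 over the 35 genes, with a range from -1.05 to 2.25, and 0.03 over all genes tested. Scaling by library size only, in place of TMM, moved the median of all genes to 0.42 and that of the 35 genes to 0.60. The 35 genes together took 1.57% and 1.75% of all raw counts in APAP 1 and APAP 3, and 0.828%, 0.78% and 1.32% in WT1, WT2 and WT3. After TMM scaling their summed level was 12310 and 16090 CPM with APAP, against 10580, 7967 and 14070 CPM in WT1, WT2 and WT3. On that scale WT3 lay above APAP 1, and the groups overlapped.

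**Figure D1:**
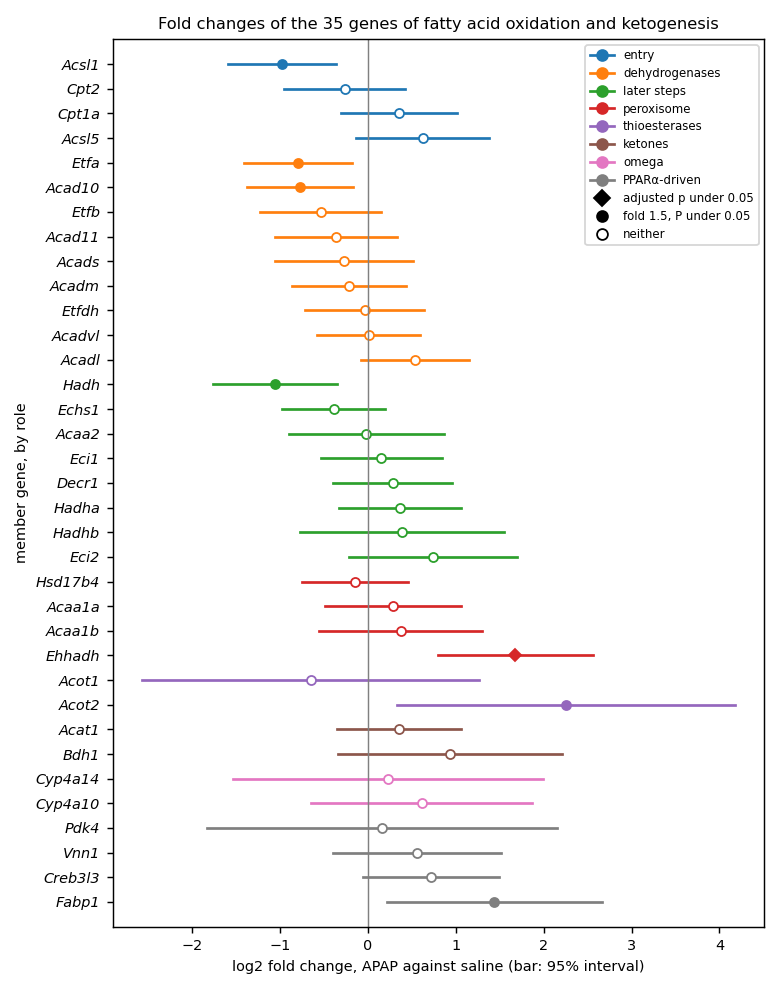
Log2 fold change of each of the 35 genes (x axis, APAP against saline) with its 95% interval, ordered by role (y axis, colours). Diamonds mark an adjusted p under 0.05 and filled circles a fold of 1.5 or more with an unadjusted p under 0.05. Ehhadh at 1.68 is the only diamond, and the genes with filled circles lie on both sides of 0.

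Of the genes that bring fatty acids into mitochondria, Acsl1 encodes the main long-chain acyl-CoA synthetase of liver. Acsl1 was at 246 and 269 CPM in APAP 1 and APAP 3 and at 561, 419 and 542 CPM in WT1, WT2 and WT3. Both APAP libraries lay below all saline libraries, by a log2 fold change of -0.98 (SE 0.26), with an unadjusted p of 0.00698 and an adjusted p of 0.0706. Acsl5, a second long-chain acyl-CoA synthetase, pointed the other way, with 436 and 376 CPM against 342, 272 and 177 CPM (log2 fold change 0.62, SE 0.32, adjusted p = 0.283). The carnitine shuttle itself showed little difference. Cpt1a, the rate-limiting outer-membrane carnitine palmitoyltransferase, was at 423 and 392 CPM after APAP, against 293, 253 and 406 CPM after saline (log2 fold change 0.36, SE 0.28, adjusted p = 0.48). Cpt2, its inner-membrane partner, was at 104 and 101 CPM against 113, 92.0 and 165 CPM (-0.26, SE 0.29, adjusted p = 0.626). For both genes the groups overlapped and WT3 was the highest saline library.

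The 9 genes of the acyl-CoA dehydrogenases and of electron transfer had a median log2 fold change of -0.28, and 7 of the 9 were below 0, of which Acadm, Acads, Acad11 and Etfdh turned above 0 when the libraries were scaled by library size only. Etfa encodes a subunit of the electron transfer flavoprotein, which takes electrons from these dehydrogenases. Its level was 131 and 194 CPM with APAP and 297, 275 and 274 CPM after saline, without overlap (log2 fold change -0.79, SE 0.26, unadjusted p = 0.0186, adjusted p = 0.118). Etfb, the other subunit, had the same order of groups, with 127 and 185 CPM against 280, 187 and 213 CPM (-0.54, SE 0.29, adjusted p = 0.31), whereas Etfdh, the dehydrogenase that passes the electrons on to ubiquinone, was at 281 and 308 CPM against 261, 250 and 395 CPM (-0.04, SE 0.28, adjusted p = 0.953). Etfb shared 67.3% of its 50-base words with transcripts of other genes, above all Gm45233, so its count is uncertain.

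None of the chain-length-specific dehydrogenases Acadm, Acadvl, Acads and Acadl passed the adjusted test. Acadm, the medium-chain enzyme, was at 265 and 372 CPM after APAP, against 320, 354 and 433 CPM after saline (log2 fold change -0.21, SE 0.27, adjusted p = 0.68). Acadvl, the very-long-chain enzyme, had a log2 fold change of 0.01 (SE 0.25), and Acads, the short-chain enzyme, one of -0.28 (SE 0.33). Acadl, the long-chain enzyme, was higher in both APAP libraries (292 and 359 CPM) than in any saline library (204, 196 and 273 CPM), with a log2 fold change of 0.54 (SE 0.26) and an adjusted p of 0.255. Acad10, a little-expressed member of the family, was at 12.9 and 9.89 CPM after APAP, against 19.7, 22.7 and 15.8 CPM after saline (-0.77, SE 0.25, unadjusted p = 0.0197, adjusted p = 0.122). Its groups did not overlap, and 20.4% of its 50-base words also occur in Acad12. Acad11 had a log2 fold change of -0.36 (SE 0.29) and overlapping groups.

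Of the 8 genes for the later steps of the mitochondrial spiral, 5 had log2 fold changes above 0 and 3 below 0, of which Echs1 and Acaa2 turned above 0 when scaled by library size only. Hadh, the medium- and short-chain hydroxyacyl-CoA dehydrogenase, had the lowest fold change of the 35 genes. It was at 127 and 182 CPM after APAP, against 394, 308 and 261 CPM after saline, that is 2.08-fold higher with saline (log2 fold change -1.05, SE 0.30, unadjusted p = 0.00953, adjusted p = 0.0822). The groups did not overlap. Hadha, the alpha subunit of the trifunctional protein that carries the same reaction for long chains, was at 304 and 455 CPM against 319, 232 and 332 CPM (0.37, SE 0.29, adjusted p = 0.49). Hadhb, the beta subunit, had a log2 fold change of 0.39 (SE 0.49), but per transcript length it was counted at only 0.153 and 0.167 of Hadha with APAP and at 0.104, 0.116 and 0.242 of Hadha in WT1, WT2 and WT3. Hadhb shared 62.4% of its words with other genes, above all Gm13910, and its level is uncertain. Eci2, an enoyl-CoA isomerase of mitochondria and peroxisomes, was at 255 and 269 CPM after APAP, against 133, 92.7 and 245 CPM after saline (0.74, SE 0.40, adjusted p = 0.314), where the highest saline library was again WT3. Eci1, Decr1, Echs1 and the thiolase Acaa2 had log2 fold changes between -0.39 and 0.28, with overlapping groups.

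In the peroxisomal branch, Ehhadh rose and its neighbours in the pathway did not pass the test. Ehhadh encodes the L-bifunctional enzyme, which joins a hydratase and a hydroxyacyl-CoA dehydrogenase in 1 protein and is a well-known target of PPARα. It was at 1482 and 1021 CPM in APAP 1 and APAP 3 and at 403, 249 and 520 CPM in WT1, WT2 and WT3. Every APAP library was above every saline library, with a 3.2-fold difference of the means (log2 fold change 1.68, SE 0.37, 95% interval 0.80 to 2.56, adjusted p = 0.0443). The call was narrow. It was made in 9 of 13 alternative analyses and was lost without APAP 1 (adjusted p = 0.218), without APAP 3 (0.0792), without WT1 (0.0995) or without WT2 (0.143), while the log2 fold change stayed between 1.39 and 2.10. Hsd17b4, the D-bifunctional enzyme of the same organelle, had a log2 fold change of -0.15 (SE 0.26), with 332 and 342 CPM against 384, 302 and 434 CPM. The peroxisomal thiolase genes Acaa1a and Acaa1b had log2 fold changes of 0.28 (SE 0.32) and 0.37 (SE 0.39). Of their 50-base words, 34.0% and 35.5% are common to the pair, so reads may have been divided between them.

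Acot1 and Acot2 are neighbouring genes for acyl-CoA thioesterases, a cytosolic and a mitochondrial enzyme, that release free fatty acid from acyl-CoA. Acot2 had the highest fold change of the 35 genes. It was at 53.1 and 28.1 CPM after APAP, against 3.59, 2.52 and 19.3 CPM after saline (log2 fold change 2.25, SE 0.81, unadjusted p = 0.0278, adjusted p = 0.147), without overlap. Without WT3 the log2 fold change was 3.74 and the adjusted p was 0.0115. Acot1 was at 27.6 and 39.5 CPM after APAP, against 35.6, 11.6 and 111 CPM after saline (-0.65, SE 0.81, adjusted p = 0.669), and without WT3 its log2 fold change turned to 0.51 (adjusted p = 0.598). The ratio of Acot2 to Acot1 counts was 1.93 in APAP 1 and 0.712 in APAP 3, against 0.101, 0.218 and 0.174 in WT1, WT2 and WT3. The 2 genes share words with each other (33.2% of Acot1 and 27.7% of Acot2 occur in other genes), so the division of reads between them is uncertain.

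**Figure D2:**
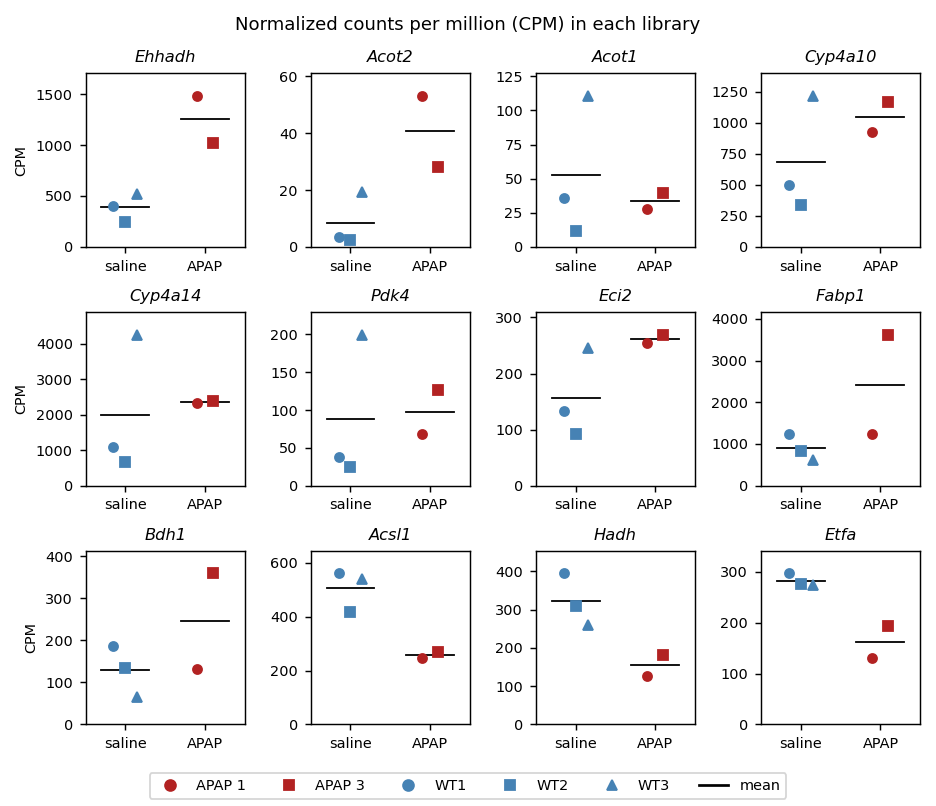
Normalized CPM (y axis, from 0) in each library for 12 of the 35 genes, by group (x axis). Black lines are group means, red symbols APAP libraries and blue symbols saline libraries, with WT3 as a triangle. WT3 lies above both APAP libraries for Acot1, Cyp4a10, Cyp4a14 and Pdk4, and the groups are apart for Ehhadh, Acot2, Eci2, Acsl1, Hadh and Etfa.

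Ketone synthesis was represented by the thiolase Acat1, which forms acetoacetyl-CoA, and by Bdh1, which interconverts acetoacetate and beta-hydroxybutyrate. Acat1 was at 338 and 592 CPM after APAP, against 354, 354 and 385 CPM after saline (log2 fold change 0.35, SE 0.30, adjusted p = 0.515). Bdh1 was at 132 and 359 CPM after APAP, against 186, 135 and 64.4 CPM after saline (0.94, SE 0.54, adjusted p = 0.336). For both genes APAP 3 lay above all saline libraries. APAP 1 lay below all of them for Acat1 and among them for Bdh1.

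The microsomal hydroxylases Cyp4a10 and Cyp4a14, which start omega-oxidation and are classical targets of PPARα, were abundant and varied widely within the saline group. Cyp4a14 was at 2321 and 2379.7 CPM after APAP, against 1083, 672 and 4260.1 CPM after saline (log2 fold change 0.23, SE 0.74, adjusted p = 0.884). Cyp4a10 was at 928 and 1166 CPM after APAP, against 502, 338 and 1216 CPM after saline (0.61, SE 0.53, adjusted p = 0.529), and 30.5% of its words are shared, above all with Cyp4a32. The same order of libraries was seen for Pdk4, the kinase that shuts pyruvate out of oxidation in fasting, at 68.9 and 127 CPM after APAP, against 38.4, 25.0 and 199.6 CPM after saline (0.16, SE 0.84, adjusted p = 0.933). In all 3 genes both APAP libraries lay above WT1 and WT2 and below WT3.

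Of the other PPARα-driven genes, Fabp1, the liver fatty acid-binding protein, was the most abundant per length, with a mean of 1617 RPKM (CPM divided by transcript length in kilobases) in saline and 4382 RPKM with APAP. Its level was 1227 and 3619.5 CPM in APAP 1 and APAP 3 and 1241, 835 and 607 CPM in the saline libraries. The fold change rested on APAP 3, since APAP 1 was within the saline range (log2 fold change 1.44, SE 0.52, unadjusted p = 0.0274, adjusted p = 0.146). Creb3l3, a liver transcription factor of the fasting response, was at 369 and 358 CPM after APAP, against 186, 164 and 314 CPM after saline (0.72, SE 0.32, adjusted p = 0.23), without overlap. Vnn1, a pantetheinase that recycles the vitamin of coenzyme A, was at 66.5 and 50.9 CPM against 56.4, 20.4 and 42.5 CPM (0.56, SE 0.40, adjusted p = 0.441).

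Without WT3 more of the 35 genes were higher after APAP. WT3 was the highest saline library for 19 of the 35, and leaving it out raises the fold changes of those genes by that choice alone. The counts of higher genes without WT3 are therefore no separate result about the 35 genes. Of 13481 genes then tested, 2 of the 35 rose at an adjusted p under 0.05 (background 3.22%), Ehhadh (log2 fold change 1.94, adjusted p = 0.0447) and Acot2. At a fold of 1.5 and an unadjusted p under 0.05, 9 genes were higher (background 12.5%) and 4 were lower (background 12.1%). The 9 were Ehhadh, Acot2, Pdk4 (log2 fold change 1.63), Cyp4a14 (1.42), Cyp4a10 (1.32), Eci2 (1.21), Creb3l3 (1.05), Hadhb (1.03) and Acadl (0.70), and the 4 were Hadh (-1.18), Acsl1 (-0.93), Acad10 (-0.90) and Etfa (-0.82), the same 4 as with WT3. The median over the 35 genes was then 0.37. With WT3 the fold changes of Pdk4 and Cyp4a14 had been 0.16 and 0.23, so these values are set by 1 library. The other libraries also weighed on the set as a whole, since the median was -0.12 without APAP 3 and 0.05 without WT2.

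**Figure D3:**
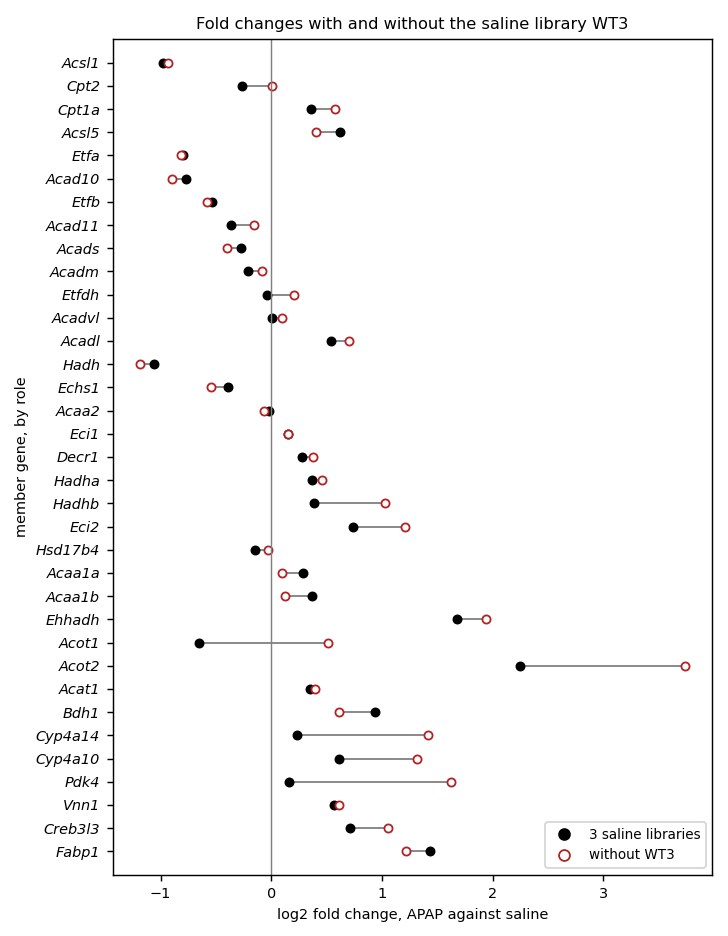
Log2 fold change (x axis, APAP against saline) of each of the 35 genes (y axis, by role) with all 3 saline libraries (black) and without WT3 (open red), joined by a line. Acot1, Acot2, Pdk4, Cyp4a14, Cyp4a10 and Hadhb shift most to the right, and Hadh, Etfa, Acad10 and Acsl1 stay below 0.

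The surrounding pathways were covered by 111 further genes in 7 lists, of which 104 were tested. At an adjusted p under 0.05, 3 of the 104 rose and 14 fell, against 3.7% and 3.53% of all genes, and the median log2 fold change was -0.33. The lists were chosen with earlier results of these data known, so no conclusion is drawn from these counts against the shares of all genes. Slc25a20, Ppara and Ppargc1a, genes for transport and control of the pathway, did not pass the test. Slc25a20, the carnitine-acylcarnitine carrier, had a log2 fold change of 0.16 (SE 0.29). Ppara itself was at 101 and 88.9 CPM after APAP, against 48.2, 71.3 and 105 CPM after saline (0.34, SE 0.33, adjusted p = 0.583), and its coactivator Ppargc1a was at 16.6 and 13.9 CPM against 12.6, 23.7 and 59.5 CPM (-1.07, SE 0.60, adjusted p = 0.329). The value for Ppargc1a rested on WT3, without which it was -0.26 (adjusted p = 0.703). In both Ppara and Ppargc1a, WT3 was the highest saline library.

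The genes that rose encode proteins of lipid droplets or of fatty acid binding. Plin2, a coat protein of lipid droplets, was at 1903 and 1616 CPM after APAP, against 289.6, 143 and 505 CPM after saline, a 5.63-fold rise (log2 fold change 2.49, SE 0.50, adjusted p = 0.0352). Cidec, which promotes the growth of lipid droplets, was at 101 and 26.0 CPM against 0.448, 0.332 and 2.14 CPM (5.98, SE 0.86, adjusted p = 0.0136, and 7.34 without WT3). It had 5 counts each in WT1 and WT2, near the floor of 3 counts, so the size of its fold change is uncertain. Fabp4, a fatty acid-binding protein of adipocytes and macrophages, was at 54.8 and 44.2 CPM against 2.87, 10.8 and 12.6 CPM (2.49, SE 0.53, adjusted p = 0.0401). As for Ehhadh, the calls of Plin2, Cidec and Fabp4 were not made in every alternative analysis. Their log2 fold changes there ran from 2.145 to 3.023, from 4.702 to 7.338 and from 2.099 to 2.845. Fabp4 was 1 of 6 adipocyte markers, of which 2 were tested and 1 rose (summed level 59.9 and 44.9 CPM after APAP, 2.87 to 17.1 CPM after saline). Of the defining markers, Lep was at 0 in all 5 libraries, Adipoq at no more than 0.534 CPM and Plin1 at no more than 0.465 CPM, whereas Cfd reached 4.23 CPM in APAP 1 and 3.61 CPM in WT3. The 3 monocyte markers named above rose with Fabp4, out of 8 examined. Lyz2, the most abundant of the 8, did not (log2 fold change -0.04), and the summed level of the 8 overlapped between the groups. Marco, a macrophage receptor, was at 56.7 and 123.5 CPM against 30.9, 7.51 and 10.1 CPM (log2 fold change 2.48, adjusted p = 0.0625). Marco was 1 of 10 Kupffer cell markers, of which 0 passed the adjusted test. The log2 fold change was above 0 for 3 of the 10 and below 0 for 7, with a median of -0.26. The part of these cells in the rise of Fabp4 was not tested. Among secreted PPARα targets, Fgf21 was at 2.29 and 19.7 CPM after APAP, against 1.70, 0.0664 and 11.6 CPM after saline (1.29, SE 1.40, adjusted p = 0.62, and 3.70 without WT3 with an adjusted p of 0.171), and Angptl4 had a log2 fold change of 0.67 (SE 0.42, adjusted p = 0.387).

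The genes that fell included 5 of 15 in the list of other mitochondrial oxidation. Acadsb, the short and branched-chain acyl-CoA dehydrogenase, was at 20.9 and 28.1 CPM after APAP, against 163, 79.3 and 68.4 CPM after saline (log2 fold change -2.08, SE 0.43, adjusted p = 0.0384). Mcee, the epimerase that handles methylmalonyl-CoA, was at 10.9 and 12.1 CPM against 39.8, 35.1 and 36.5 CPM (-1.69, SE 0.20, adjusted p = 0.00702). Pccb and Mut, enzymes before and after Mcee on the route from propionyl-CoA to succinyl-CoA and named after their values were seen, fell as well (-1.35 and -1.01), as did the thioesterase Acot13 (-1.29). These 5 genes are not among the 35, and their fall is no result about the mitochondrial spiral described above. In omega-oxidation, 3 of 7 tested genes fell. Aldh3a2, the fatty aldehyde dehydrogenase, was at 54.9 and 67.0 CPM against 373, 290.4 and 344 CPM (-2.46, SE 0.26, adjusted p = 0.00523), and it was called in all 13 alternative analyses. The hydroxylase Cyp4f14 was at 17.6 and 41.9 CPM against 312, 247 and 162 CPM (-3.01, SE 0.49, adjusted p = 0.0187), and its relative Cyp4f15 also fell (-1.55). Cyp4a12a, a male-predominant hydroxylase of mouse liver, was at 0.823 and 24.8 CPM after APAP, against 0, 0.465 and 0.134 CPM after saline (adjusted p = 0.0597). The high level was seen in APAP 3 only. As for every gene here, the effect of APAP and a difference in sex cannot be told apart. Of the words of Cyp4a12a, 48.9% are shared, above all with Cyp4a12b.

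Of the other lists, 1 of 18 tested genes of peroxisomal oxidation fell, 2 of 7 of ketone synthesis and use, 2 of 22 regulators and 1 of 21 of fatty acid uptake and activation. Pecr, a peroxisomal enoyl-CoA reductase, was at 21.5 and 34.4 CPM after APAP, against 205, 184 and 91.7 CPM after saline (log2 fold change -2.52, SE 0.43, adjusted p = 0.0221). Bdh2, a cytosolic hydroxybutyrate dehydrogenase, was at 2.53 and 2.16 CPM against 13.4, 13.2 and 7.35 CPM (-2.26, SE 0.38, adjusted p = 0.0209). Sirt3, the main deacetylase of mitochondria, was at 21.9 and 23.6 CPM against 83.7, 65.2 and 61.5 CPM (-1.62, SE 0.23, adjusted p = 0.0128). The remaining genes that fell were Slc27a5, Slc16a7 and Cebpa, with log2 fold changes from -1.54 to -1.04. The number of genes that fell depended on single libraries, being 1 without APAP 1, 4 without APAP 3, 6 without WT1, 2 without WT2 and 13 without WT3.

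**Figure D4:**
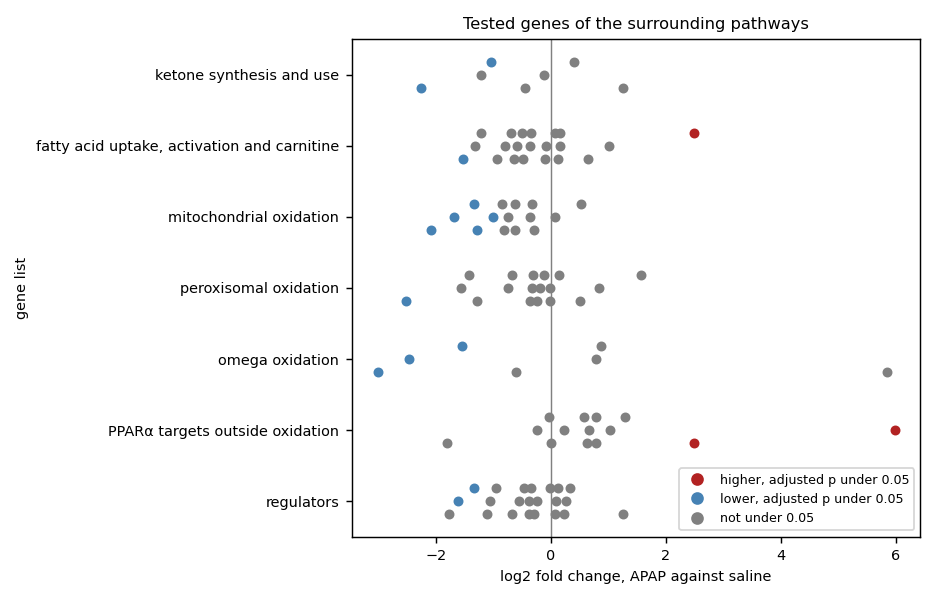
Log2 fold change (x axis, APAP against saline) of the 104 tested genes of the surrounding pathways, 1 point per gene, by list (y axis). Red points passed an adjusted p under 0.05 as higher and blue points as lower. The 3 red points are Fabp4, Plin2 and Cidec, and 5 of the 14 blue points lie in the list of other mitochondrial oxidation.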

How the data were processed

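Liver RNA was sequenced by the authors on an Illumina NovaSeq platform. Read counts per gene were obtained with HISAT2 per the study's methods and deposited by the authors as raw counts without normalization. The submitters' processing notes name GRCm38 and mm10. The annotation, strand setting and program versions are not given in the sources used here. Of 34745 gene identifiers, 34267 were found in GENCODE M21 and 27682 had identical start, end and strand. The tests were run on the raw counts, and the 5 deposited columns of FPKM were not used. The WT columns, of counts as of FPKM, cannot be matched to single saline samples. Without a stated strand setting, reads of overlapping genes cannot be told apart.

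The statistics were run in edgeR 4.0.16 under R 4.3.3. The function filterByExpr, with a minimum count of 10 and a minimum total of 15, retained 13734 genes. After TMM normalization, glmQLFit and glmQLFTest gave quasi-likelihood p-values, adjusted over all 13734 genes after Benjamini and Hochberg. RPKM used the transcript length from GENCODE. To gauge shared reads, the longest coding transcript of each gene was divided into all words of 50 bases and the percent of words also found in another gene's transcripts was taken. Genes at 10 percent or more are called uncertain (8 of the 35). The analysis was checked on simulated counts. Alternatives were the exact test and the likelihood ratio test of edgeR, DESeq2 1.42.0 (its Wald test), 3 other scalings, 2 other filters and each library left out. Figures used Python 3.11.15 and matplotlib 3.10.9.

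The 35 genes, the pathway lists and the markers were chosen with earlier results of these data known. Full values were set for genes past the adjusted threshold, for genes past a fold of 1.5 at an unadjusted p under 0.05 without overlap, for Cpt1a, Cpt2, Acadm, Hadha, Acat1 and Bdh1, for 7 pathway genes whatever their result (Ppara, Ppargc1a, Slc25a20, Fgf21, Angptl4, Plin2 and Cyp4a12a), and for the 10 largest changes among pathway genes that passed. Values of other genes were added after they were seen. Some genes that the rule covers are not reported here.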

Additional observations from a re-analysis of the deposited data

How the results depend on the processing

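No paired analysis was possible because the WT columns carry no replicate numbers of the saline samples. The sources also name no link between single APAP mice and single saline mice, so no paired design is known. Of the 35 genes, the number that rose and the number that fell at an adjusted p under 0.05 were 2 and 2 in edgeR's likelihood ratio test, 2 and 2 in its exact test, and 2 and 3 in DESeq2, against 1 and 0 as reported. Hadh and Acsl1 fell in all 3 of these tests, Acot2 rose in the likelihood ratio and exact tests, and Etfa fell and Fabp1 rose in DESeq2. Among the surrounding pathway genes, 6, 6 and 8 rose in these tests against 3, and 24 fell in DESeq2 against 14. Over all genes, 1835, 1776 and 2042 passed against 993. With no filter beyond 1 count in any library, 6 pathway genes rose. Without the 8 genes that share sequence, the median over the remaining 27 was 0.16.

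With library size only, the share of calls that were higher went from 51.2% to 77.8%, 2 of the 35 genes rose, 15 were higher and 1 was lower at a fold of 1.5 and an unadjusted p under 0.05, and 7 pathway genes rose and 9 fell. The median over the 35 genes was 0.60. The log2 fold changes then turned above 0 for Cpt2 (0.13), Acadm (0.15), Acads (0.088), Acad11 (0.014), Echs1 (0.007), Etfdh (0.34), Acaa2 (0.36) and Hsd17b4 (0.25). With upper-quartile factors Etfdh was at 0.007 and Acaa2 at 0.012, and Acadvl was at -0.028 in DESeq2 and at -0.029 with size factors.

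Leaving out 1 library at a time gave between 0 and 2 genes of the 35 that rose, 0 that fell, 1 (without WT2) to 9 (without WT3) higher and 2 (without APAP 1) to 4 lower at the unadjusted threshold, and a median from -0.12 (without APAP 3) to 0.37 (without WT3). Between 0 (without WT2) and 7 (without WT3) pathway genes rose and 1 (without APAP 1) to 13 (without WT3) fell. Between 165 (without WT2) and 922 (without WT3) of all genes passed. A lone APAP library was assumed to vary like the saline libraries. The sign turned with the library left out for Cpt2 (-0.44 to 0.006), Acadvl (-0.17 to 0.16), Acadm (-0.49 to 0.015), Acads (-0.87 to 0.14), Hadhb (-0.021 to 1.03), Eci1 (-0.31 to 0.50), Etfdh (-0.16 to 0.20), Acaa2 (-0.65 to 0.42), Acot1 (-1.13 to 0.51), Acat1 (-0.12 to 0.70), Cyp4a14 (-0.18 to 1.42), Pdk4 (-0.36 to 1.63), Slc25a20 (-0.039 to 0.37) and Fgf21 (-0.97 to 3.70). None of these fold changes passed the threshold as reported. The causes were not tested. Groups of 2 and 3 libraries, which also differ in sex-linked RNA, limit every comparison.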

Other observations

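Acot3 and Acot4, further acyl-CoA thioesterase genes, had the opposite order of groups to Acot2. Acot4 was at 15.9 and 26.5 CPM after APAP, against 53.0, 41.3 and 61.1 CPM after saline (log2 fold change -1.29, SE 0.30, adjusted p = 0.0504). Acot3 was at 25.5 and 18.7 CPM, against 92.1, 29.6 and 75.4 CPM (-1.57, SE 0.48, adjusted p = 0.101), and 19.5% of its 50-base words are shared with other genes. Whether the fold changes of these genes differ from that of Acot2 was not tested.

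Pex11a, which promotes the division of peroxisomes, was higher in both APAP libraries than in WT1 and WT2. It was at 359 and 148 CPM after APAP, against 48.6, 49.0 and 158 CPM in WT1, WT2 and WT3 (log2 fold change 1.57, adjusted p = 0.172, and 2.38 without WT3 with an adjusted p of 0.0372). The saline libraries differed widely in Lpin1, a fasting-responsive coactivator and lipid phosphatase, at 34.5, 315 and 794 CPM, against 93.1 and 131 CPM after APAP (-1.77, adjusted p = 0.36, and -0.64 without WT3 with an adjusted p of 0.706). Acot3, Acot4, Pex11a and Lpin1 were named after their values were seen.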
